A study of Mus musculus with 18 samples.

Results

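The R1E line of mouse embryonic stem cells was exposed to ultraviolet light (UV) and compared with mock-treated cells of the same line. The members were chosen by array title: 4 arrays titled R1E UV and 4 titled R1E Mock, 8 of the 18 arrays of the series. UV was given at 25 J/m2 and the cells were taken at 8 hours. No time is given for the mock cells. A further 4 R1E arrays, from cells given 0.5 µM adriamycin (the anthracycline doxorubicin, which traps topoisomerase II on cut DNA) for 8 hours, entered the same fit and served as a second DNA-damaging agent. All 3 R1E groups were kept in knockout DMEM with 15% serum and 1000 units/ml of leukemia inhibitory factor (LIF), the cytokine that holds mouse stem cells in their self-renewing state. The 6 arrays of p53-/- cells were left out of the fit and all comparisons, and entered only the choice of 1 probe set per gene. The labels do not say if arrays of 1 group stand for different cultures. Every p-value is therefore set against the scatter among arrays, part or all of which can be technical.

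UV light joins neighbouring pyrimidines in DNA. Such a lesion on the transcribed strand stops RNA polymerase II, and nucleotide excision repair cuts it out, either across the whole genome (through XPC and DDB2) or at the stalled polymerase (through CSB, CSA and UVSSA). Stalled polymerases and replication forks signal through the kinases ATR and ATM to p53, a transcription factor that raises genes of arrest, repair and cell death, and through the stress kinases JNK and p38 to the AP-1 factors of the JUN, FOS and ATF families. Embryonic stem cells also run a network of self-renewal genes around OCT4, SOX2 and NANOG.

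The values are deposited log2 intensities of whole-transcript arrays, so that 1 unit is a 2-fold difference, and they are relative within an array: total RNA per cell was not measured. Over all probes the array medians lay between 5.48 and 5.53 in the mock group and between 5.58 and 5.60 in the UV group. The correlation between arrays was 0.9974 to 0.9986 within the mock group, 0.9972 to 0.9982 within the UV group and 0.9831 to 0.9874 between them. All 12 measured stem cell markers were well expressed in mock cells, from 9.26 to 12.24 for Tdgf1, an embryonic co-receptor of Nodal. The 11 measured fibroblast markers, which would mark feeder cells, ran from 2.87 to 6.80, the highest being Col1a1. Their summed level was 8.78 to 8.95 in mock and 8.93 to 9.06 in UV arrays on the log2 scale, and 3 of the 11 were called higher. The summed levels of primitive endoderm, trophectoderm, mesendoderm and neuroectoderm markers were 10.15 to 10.27, 10.23 to 10.34, 8.13 to 8.35 and 9.38 to 9.55 in mock arrays and 9.79 to 10.15, 10.06 to 10.22, 7.81 to 7.98 and 9.19 to 9.29 in UV arrays. The part of other cell types in the results was not tested, and in such bulk RNA fewer cells of a type and less RNA per cell cannot be told apart.

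Targets of p53, several AP-1 factors and Wnt ligands rose after UV, while most listed genes of chromatin, cohesin, self-renewal, vesicle traffic and ubiquitin transfer fell. With limma and a Benjamini-Hochberg adjusted p below 0.05 as the threshold for a call, 4515 of 19935 genes were higher (22.6%) and 4236 lower (21.2%), together 43.9%. These shares are the background against which each gene list is read, and in the text a gene rose or fell where it passed that threshold. Among the 10004 genes with a mean log2 value of at least 6 the background was 29.0% higher and 35.5% lower. The 4 UV arrays lay wholly above the 4 mock arrays for 20.6% of genes and wholly below them for 20.2%, together 40.7%. Centring each array on its median turned the split to 3102 higher and 5678 lower, and a test against a change of at least 1.2-fold called 1506 and 1614.

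**Figure D1:**
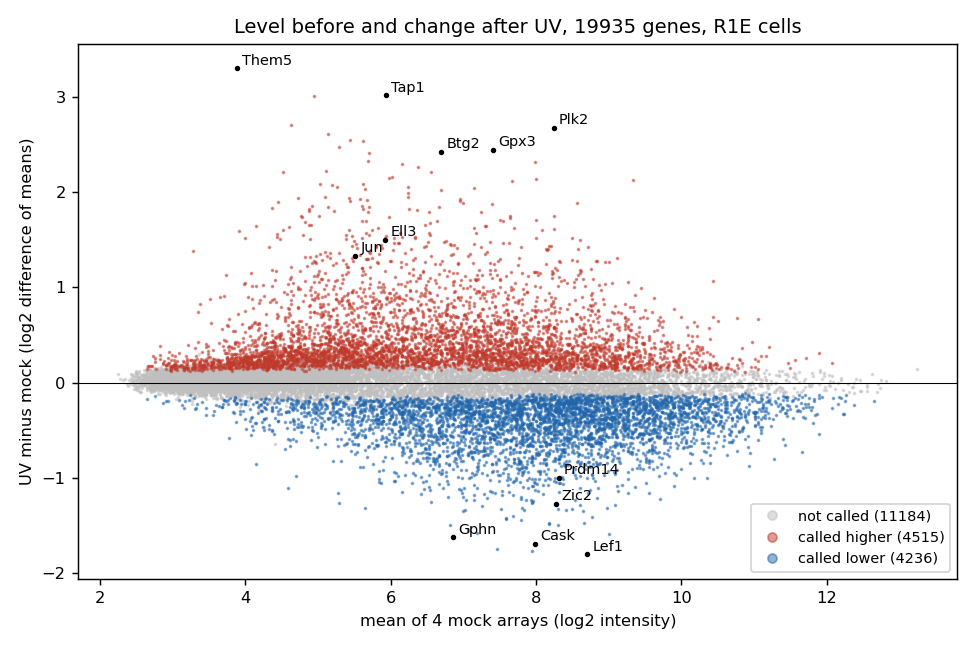
Each point is 1 of 19935 genes; the x axis is the mean of the 4 mock arrays (log2 intensity) and the y axis the UV minus mock difference (log2), with genes called higher in red, called lower in blue and not called in grey. The rises reach 3.30 (Them5) and the falls -1.80 (Lef1), and the 25 named genes with the largest falls start at mock means of 6.82 to 9.01.

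The genes with the largest rises started from very different levels, and several are best known from other tissues. The mock means of the first 25 by the naming rule ran from 3.88 to 8.24 with a median of 5.70, against 5.91 for all genes. Zfp750, a zinc finger factor of epidermal differentiation, read 5.30, 5.42, 5.46 and 5.58 on mock arrays 1 to 4 and 7.99, 8.11, 7.88 and 7.93 on UV arrays 1 to 4. Nipal4, an epidermal membrane protein in which mutations cause ichthyosis, read 5.20, 5.33, 5.31 and 5.32 and then 7.76, 7.80, 7.70 and 7.78. Both sets of UV values lay at least 2 units above the highest mock value. Gpx3, the secreted glutathione peroxidase, read 7.51, 7.39, 7.37 and 7.38 in mock and 9.75, 9.92, 9.88 and 9.87 after UV, a 5.43-fold rise (log2 change 2.44 ± 0.06 SE, limma adjusted p = 1.79e-13).

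Other genes of the first 25 were the annexin Anxa8 (2.33), the membrane transporter Slc4a11 (2.32), the melanocyte antigen Mlana (2.29) and Pm20d1, an enzyme that makes N-acyl amino acids (2.26). The synaptic vesicle protein Svop (2.21), the G protein subunit Gna15 (2.15), Ddit4l, an inhibitor of mTOR signalling (2.13), the anoctamin Ano7 (2.09) and Ms4a10 (2.08) followed; all values in brackets are log2 changes. Of the 372 genes higher by at least 2-fold (1.87% of genes tested) the median span from first to last annotated base was 16.2 kb, close to the 17.7 kb of all genes, and 11 were longer than 100 kb. Their median level was 6.25 in mock and 7.68 in UV arrays. The 138 genes lower by at least 2-fold (0.692%) had a median span of 222 kb, with 106 longer than 100 kb, and their median level went from 7.84 to 6.68.

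Nearly every measured target of p53 rose, whichever branch of the response it serves. In 4 lists by function, 10 of 10 arrest targets, 11 of 11 death targets, 13 of 14 metabolism and repair targets and 8 of 11 feedback and sensing genes were higher, and 1 of these 46 members was lower. The median changes were 1.1, 0.85, 0.87 and 0.66 in that order, against 0.03 for all genes. These lists overlap with one that earlier work on these samples had already shown to rise, so the counts are no independent evidence. The targets Cdkn1a and Bax were not analysed here, since no probe names either alone.

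The arrest genes were led by Plk2, a kinase of centriole duplication and stress, which read 8.39, 8.24, 8.25 and 8.07 on the mock arrays and 10.84, 10.90, 10.93 and 10.97 on the UV arrays. Btg2, an antiproliferative gene that promotes mRNA deadenylation, read 6.81, 6.59, 6.72 and 6.62 and 9.28, 9.08, 9.07 and 8.99. Neither gene's groups overlap, and the changes were 2.67 ± 0.06 SE (limma adjusted p = 3.73e-14) and 2.42 ± 0.07 (adjusted p = 7.33e-13). The receptor phosphatase Ptprv rose by 2.21, Phlda3, which holds AKT off the membrane, by 1.70, Sfn (14-3-3 sigma) by 1.28 and the sestrin Sesn2 by 0.92 on the log2 scale.

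Both leading genes carry the palindrome TGACGTCA, the cAMP response element that CREB and ATF factors bind, in the 250 bases before their start site. The stretches below are from RefSeq (GRCm38.p6), on the gene's own strand and 5′ to 3′, with the element in capitals; they are shown because these are the arrest targets with the largest rise. That of Plk2 runs from 120 bases to 1 base before the start (chr13:110394924-110395043, plus strand), and that of Btg2 from 220 to 101 bases before it (chr1:134079256-134079375, minus strand).
Plk2: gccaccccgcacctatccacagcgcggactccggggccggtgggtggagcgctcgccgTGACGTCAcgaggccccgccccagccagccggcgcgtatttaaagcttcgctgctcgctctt
Btg2: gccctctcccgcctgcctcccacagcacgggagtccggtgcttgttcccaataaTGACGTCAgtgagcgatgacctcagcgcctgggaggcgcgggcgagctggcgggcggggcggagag
The element starts 62 bases before the start site of Plk2 and 166 before that of Btg2. It was searched on both strands, which read alike because it is a palindrome, in the RefSeq windows from 250 bases before to 50 after the start of 15612 of the 19935 genes, and 424 genes (2.72%) held it. It was present in 2 of the 9 arrest targets with a window, in 1 of 9 feedback genes (Ppm1d) and in none of 8 death or 12 metabolism targets. Of the 424 genes 117 were higher (27.6%) and 107 lower (25.2%), against 23.0% and 21.6% of all genes with a window. The motifs TGANTCA (N is any base) and TATAAA were searched in the same windows, and none of the 9 arrest targets held either. Genes with TGANTCA were higher in 21.6% and lower in 16.2% of cases, and those with TATAAA in 16.0% and 14.5%. A match of letters is a description and does not show binding.

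Among death targets, Perp, a membrane protein of desmosomes and p53-dependent death, had the largest rise. It read 7.06, 7.29, 7.09 and 7.12 in mock and 9.40, 9.09, 9.18 and 9.07 in UV arrays, 4.13-fold higher (2.04 ± 0.07 SE, adjusted p = 3.09e-12, limma). Fas, the death receptor, rose by 1.83, the BH3-only genes Pmaip1 (NOXA) by 1.11 and Bbc3 (PUMA) by 0.66, the TRAIL receptor Tnfrsf10b by 0.93, Siva1 by 0.87 and Apaf1, the core of the apoptosome, by 0.85. Dffb, the nuclease that cuts DNA between nucleosomes in dying cells, rose by 1.95, and its inhibitor and chaperone Dffa by 0.41.

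The rest of the death machinery moved less and in both directions. In the BCL2 family 5 of 19 members were higher and 5 lower, with a median of 0.03. The BH3-only gene Bik rose by 0.78 and Bad by 0.35, while Bnip3, of mitophagy, was at -0.76 and Bmf at -0.59. Among death receptors, caspases and inhibitors 9 of 27 were higher and 5 lower. Those lower were all brakes on caspases or on death receptor signalling: Birc6 (-0.71), Birc2 (-0.46), Cflar (-0.45), Birc3 (-0.33) and Xiap (-0.30). Dimmer second probes of Birc2 (-0.04) and Cflar (-0.10 and -0.05) were not called.

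Genes that hold p53 in check rose together with those that sense damage. Mdm2, the ubiquitin ligase that degrades p53, read 9.17, 9.15, 9.12 and 9.03 in mock and 10.43, 10.34, 10.44 and 10.47 in UV arrays (1.30 ± 0.05 SE, limma adjusted p = 7.96e-12). Pidd1, a death domain protein, rose by 1.51, Trp53inp1 by 1.07, the phosphatase Ppm1d (WIP1) by 1.02, the exonuclease Aen by 0.76 and cyclin G1 (Ccng1) by 0.66. The exception was Cop1, another ubiquitin ligase for p53, which was at -0.73 and is the longest gene of its list at 123 kb. Of the metabolic and repair targets, the sugar reductase Dcxr rose by 2.12, the epoxide hydrolase Ephx1 by 1.75, the proline catabolic enzyme Aldh4a1 by 1.39, Cpt1c by 1.27 and the thiamine transporter Slc19a2 by 1.00. Rrm2b, the p53-inducible subunit of ribonucleotide reductase, was not called at 0.07 ± 0.06.

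**Figure D2:**
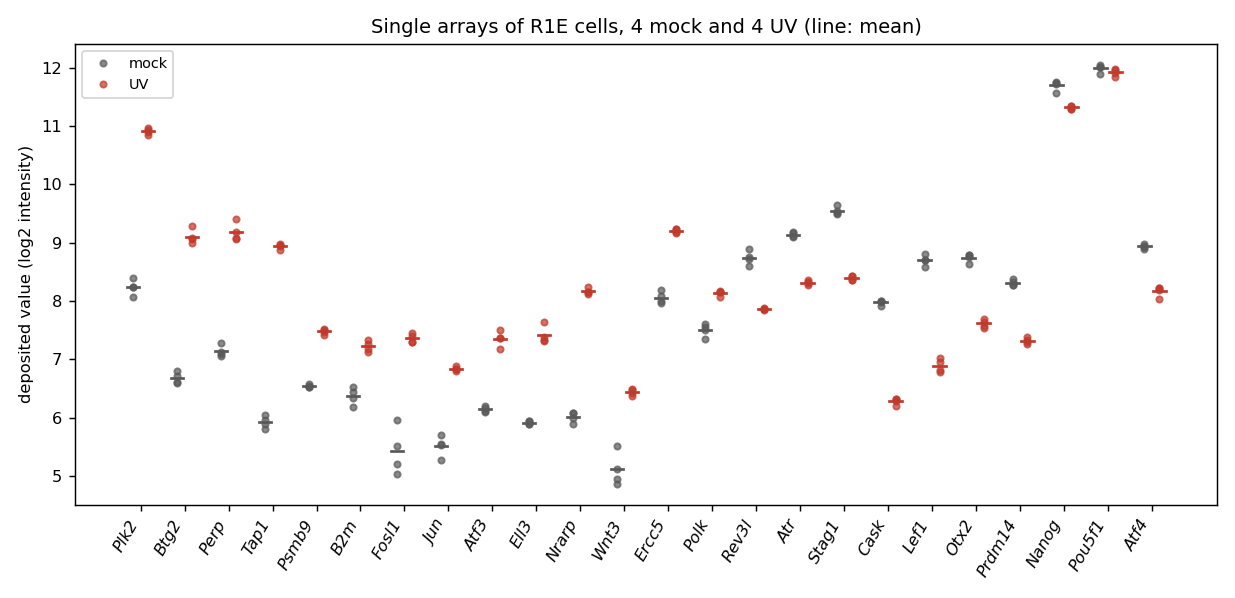
Deposited log2 intensities of 24 genes on each of the 4 mock (grey) and 4 UV (red) arrays, with a line at each group's mean; genes are on the x axis. Apart from Pou5f1, whose groups overlap, the UV points of every gene shown lie wholly above or wholly below the mock points, from Plk2 (8.24 to 10.91 in the means) to Atf4 (8.94 to 8.17).

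The machinery that removes UV lesions was split rather than raised as a whole. Of 31 nucleotide excision repair genes 8 were higher and 9 lower, close to the background, with a median of 0.00. The clearest rise was in Ercc5, the XPG nuclease that cuts on the 3′ side of the lesion and a member of the p53 list too. It read 8.19, 8.00, 8.08 and 7.96 in mock and 9.23, 9.17, 9.23 and 9.18 in UV arrays, with no overlap, 2.21-fold higher (1.15 ± 0.06 SE, adjusted p = 1.91e-10 in limma). Of the damage sensors, Xpc rose by 0.41 ± 0.05 and Ddb2 was not called at -0.06 ± 0.06.

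Ddb2 is the member of the UV-damaged DNA-binding complex that recognises pyrimidine dimers. Its mock arrays read 7.08, 6.96, 7.17 and 6.87 and its UV arrays 7.01, 7.04, 6.89 and 6.90, which overlap. On the transcription-coupled side Uvssa rose by 0.49, and neither Ercc6 (CSB, 0.12) nor Ercc8 (CSA, 0.11) was called, though Ercc6 was called higher without UV array 3 (0.17). Xpa, which verifies the lesion, was not called either (-0.05 ± 0.06). The helicase Ercc2 (XPD) rose by 0.42 and the single-strand binding subunit Rpa2 by 0.24, while the 3 genes of the CDK-activating kinase of TFIIH all fell: Mnat1 (-0.97), Ccnh (-0.41) and Cdk7 (-0.35). The ubiquitin ligase scaffold Cul4b was at -0.62, the ligase Lig1 at -0.34 and the XPC partner Rad23b at -0.30.

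Polymerases and helicases that let forks pass a lesion fell, with exceptions among the Y-family polymerases. Of 18 translesion and tolerance genes 13 were lower and 2 higher, with a median of -0.21. Rev3l, the catalytic subunit of polymerase zeta, read 8.89, 8.73, 8.76 and 8.60 on mock and 7.87, 7.86, 7.85 and 7.88 on UV arrays, all lower (-0.88 ± 0.06 SE, limma adjusted p = 9.29e-09). Polh, the polymerase that copies accurately past thymine dimers, was at -0.31 ± 0.07. The 2 that rose were Polk (0.64), which is on the p53 list too, and Rev1 (0.24), the scaffold of the Y-family polymerases.

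Polk read 7.60, 7.55, 7.5 and 7.35 in mock and 8.15, 8.07, 8.18 and 8.15 in UV arrays, the reverse of Rev3l. The fork remodellers Hltf (-0.77), Zranb3 (-0.56) and Shprh (-0.40), the repriming enzyme Primpol (-0.50) and Usp1 (-0.35), which takes ubiquitin off PCNA, all fell. The 13 members that fell had a median span of 60.7 kb, against 51.2 kb for the list and 17.7 kb for all genes.

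Checkpoint kinases fell, while the ATR partners Atrip and Rad9a rose. Atr, the kinase that answers stalled forks, read 9.16, 9.11, 9.18 and 9.10 in mock and 8.36, 8.32, 8.31 and 8.28 after UV (-0.82 ± 0.04 SE, limma adjusted p = 2.51e-10), with no overlap. Its partner Atrip rose by 0.62 and Rad9a, of the clamp that activates ATR, by 0.57. Atm, the kinase of double-strand breaks, was at -0.49, Trp53bp1 at -0.38 and Chek1, the effector kinase of ATR, at -0.23, which missed the threshold after quantile normalization. Of 23 members 11 were lower and 4 higher, a median of -0.12. Atr spans 95.6 kb and Atm 99.7 kb, whereas Atrip spans 14.4 kb and Rad9a 6.48 kb.

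In the other repair pathways more genes fell than rose. Of 28 genes of homologous recombination and Fanconi repair 16 were lower and 8 higher. The helicase Wrn (-0.99), the Fanconi ligase Fancl (-0.88) and Fancc (-0.82) fell, and the nuclease scaffold Slx4 (0.64), Rad52 (0.49) and the nuclease Mus81 (0.44) rose. In base excision, mismatch and end joining repair 10 of 29 were lower and 4 higher, including Xrcc4 (-0.86), Msh3 (-0.74) and the kinase Prkdc (-0.61) below and the glycosylase Nthl1 (0.60) and the flap nuclease Fen1 (0.37) above. The share lower there, 34.5%, was close to the 35.5% of genes with a mean log2 value of at least 6. The share higher, 13.8%, was below their 29.0%. Median spans of the members that fell were 64.3 kb and 63.6 kb in these lists, against 38.6 kb and 30.6 kb for all their members.

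More AP-1 factors rose than fell after UV. Of 14 AP-1 factors 6 were higher and 1 lower (42.9% and 7.14%), with a median of 0.17. Jun read 5.70, 5.27, 5.55 and 5.53 in mock and 6.84, 6.83, 6.89 and 6.80 in UV arrays, 2.51-fold higher (1.33 ± 0.07 SE, limma adjusted p = 3.08e-10). Atf3, a stress-induced repressor, read 6.10, 6.20, 6.16 and 6.11 and 7.36, 7.51, 7.36 and 7.18, a change of 1.21 ± 0.08. Fosl1 rose by 1.94, Fos by 0.88 and Mafk by 0.88. Atf2, which JNK and p38 phosphorylate, was the member that fell (-0.54).

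Immediate early genes were mixed, 14 of 31 higher and 7 lower, a balance that became 11 and 10 with the arrays centred. The phosphatase Dusp2 (1.17), Ccn1 (CYR61, 1.13), the neuronal gene Arc (0.94), Btg1 (0.75) and the nuclear receptor Nr4a1 (0.68) rose, as did Egr1 (0.43). Ier3 (-0.85), the mRNA decay factor Zfp36 (-0.50) and Dusp6, the ERK phosphatase (-0.21), fell. Myc was at 0.16 ± 0.05 (adjusted p = 0.0166, limma), a call that was lost with the arrays centred and without mock array 3 (0.13). In the JNK and p38 cascade 12 of 30 were higher and 10 lower, from Map3k6 (1.41) to Map2k6, the p38 activator MKK6, which read 7.64, 7.52, 7.63 and 7.54 in mock and 6.20, 6.02, 6.14 and 6.27 after UV (-1.42). Mapk8 (JNK1) was at -0.46.

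Of the genes of antigen processing, the neighbours Tap1 and Psmb9 both rose. Tap1, a subunit of the transporter that brings peptides to MHC class I, read 5.96, 5.81, 6.04 and 5.90 in mock and 8.98, 8.95, 8.97 and 8.87 in UV arrays (3.02 ± 0.06 SE, limma adjusted p = 4.87e-15). Psmb9, an immunoproteasome subunit transcribed in the other direction from the same promoter, read 6.52, 6.58, 6.52 and 6.55 and 7.52, 7.42, 7.51 and 7.47 (0.94 ± 0.06, adjusted p = 8.73e-10). For both genes all UV arrays lay above all mock arrays. B2m, the light chain of MHC class I, read 6.44, 6.34, 6.52 and 6.18 and 7.34, 7.27, 7.12 and 7.18 (0.86 ± 0.09).

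The start sites of Tap1 and Psmb9 face away from each other, with 225 bases between them (RefSeq, GRCm38.p6, chr17:34187331-34187555). The whole interval is shown because both genes moved, on the strand of Tap1 and 5′ to 3′, in lower case with no motif marked.
Tap1 and Psmb9: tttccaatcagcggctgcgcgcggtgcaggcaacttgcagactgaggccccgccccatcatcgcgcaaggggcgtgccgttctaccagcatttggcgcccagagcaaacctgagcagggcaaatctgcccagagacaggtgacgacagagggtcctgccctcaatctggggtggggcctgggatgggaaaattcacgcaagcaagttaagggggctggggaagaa
Of the 14 antigen processing genes measured 6 were higher and none lower, with a median of 0.07, or 5 and 2 with the arrays centred. Tap2 (0.42), Psmb8 (0.28) and the chaperone Calr (0.16, not called with the arrays centred) rose as well. Interferon response genes did not rise as a group, with 7 of 25 higher and 5 lower. Isg20 (0.86) and the RNA sensor Dhx58 (0.83) rose, and Oas1a (-0.69), the RNA sensor Ddx58 (RIG-I, -0.58) and Irf1 (-0.57, with a dimmer second probe at -0.01 and not called) fell.

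Of the inflammatory genes the chemokine Cxcl10 rose most. It read 5.08, 5.11, 4.93 and 4.75 in mock and 6.4, 6.12, 6.30 and 6.35 in UV arrays (1.32 ± 0.08 SE). The NF-kB subunits Rela (0.83) and Nfkb2 (0.57) and the kinase Ikbke (0.77) rose, and Rel (-0.43) fell. In the NF-kB list 9 of 24 were higher and 3 lower, or 5 and 4 with the arrays centred. Among chemokines and interleukins 12 of 49 were higher and 1 lower, close to the background for rises.

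Genes of the transcription machinery moved in both directions, and their lists did not stand far from the background. Polr2a, the largest subunit of RNA polymerase II, which is ubiquitylated and degraded when it stalls at a lesion, read 10.38, 10.37, 10.40 and 10.37 in mock and 10.99, 10.93, 10.88 and 11.01 in UV arrays (0.57 ± 0.04 SE, limma adjusted p = 2.25e-08). Of 33 polymerase subunits and general factors 10 were higher (30.3%) and 8 lower (24.2%). Among genes with a mean log2 value of at least 6 the shares were 29.0% and 35.5%. Taf6 (0.60), Gtf2f1 (0.54), Polr2d (0.46) and Polr2l (0.43) rose, and Gtf2e2 (-0.65), Taf1 (-0.53) and Taf3 (-0.29) fell. The members that fell had a median span of 51.2 kb and those of the whole list 10.4 kb.

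Mediator, the bridge between activators and polymerase, had 10 of 32 genes higher (31.2%) and 9 lower (28.1%), also near the background. Of its kinase module Cdk8 (-0.52), Cdk19 (-0.52), Med13 (-0.51) and Med13l (-0.54) fell. They are named as being among the largest falls of the list, and values for the rest of the module are not given here. Med10 (0.64), Med22 (0.45), Med25 (0.36) and Med9 (0.35) rose. The Mediator members that fell had a median span of 87.2 kb, against 17.7 kb for all genes. In the list of elongation and pausing 12 of 33 were higher and 12 lower, 36.4% each. Ell3, an elongation factor of germ and stem cells, read 5.94, 5.89, 5.90 and 5.94 in mock and 7.34, 7.64, 7.38 and 7.31 in UV arrays (1.5 ± 0.07 SE). Hexim1, which holds the pause-release kinase P-TEFb inactive, rose by 0.58, the kinase itself, Cdk9, by 0.31, Eaf1 by 0.68 and Ell by 0.59. Mllt3 (-0.75) and Aff1 (-0.62), scaffolds of the super elongation complex, fell.

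Splicing regulators leaned downward. Of 32 SR and hnRNP splicing factors 17 were lower and 3 higher, led by the SR kinase Srpk2 (-0.93), Ptbp2 (-0.77) and Hnrnpr (-0.76), with Srsf5 (0.35) the highest of those that rose. In the core spliceosome 12 of 31 were lower and 7 higher, or 8 and 10 after quantile normalization, so no direction is given. The exonucleases Xrn2 (-0.52), which ends transcription, and Xrn1 (-0.51), which degrades decapped mRNA, fell.

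Most self-renewal genes fell, although Pou5f1 passed the test only with the arrays centred. Of 33 core and naive pluripotency factors 24 were lower (72.7%) and none higher, with a median of -0.32. Prdm14, a repressor that guards the naive state, read 8.38, 8.28, 8.27 and 8.32 in mock and 7.26, 7.33, 7.30 and 7.38 after UV (-1.0 ± 0.05 SE, limma adjusted p = 8.15e-11), and no UV array reached a mock array. Lin28a (-0.71) and Lin28b (-0.68), which block let-7 maturation, Mycn (-0.63), Fbxo15 (-0.68) and Rif1 (-0.67) followed. Pou5f1, which encodes OCT4, read 12.01, 12.02, 11.90 and 12.05 in mock and 11.84, 11.98, 11.91 and 11.97 in UV arrays, overlapping, at -0.07 ± 0.05 (adjusted p = 0.295). With the arrays centred it was called lower, at -0.15.

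Nanog read 11.76, 11.74, 11.72 and 11.57 and 11.35, 11.29, 11.30 and 11.35 and was lower in every UV array (-0.37 ± 0.07 SE). Genes of the formative state, which stem cells enter when they leave the naive state, fell too: 12 of 19 lower and 1 higher, with a median of -0.53. Otx2 read 8.79, 8.76, 8.79 and 8.63 in mock and 7.65, 7.58, 7.54 and 7.70 in UV arrays (-1.12 ± 0.06 SE), Zic2 was at -1.27, Zic5 at -0.95, Sox11 at -0.95 and the methyltransferase Dnmt3b at -0.65. A dimmer second probe of Zic5 gave a smaller fall, -0.36. The receptor Epha2 rose (0.48). Of the germ layer and trophectoderm markers 4 of 30 were higher and 7 lower, or 3 and 11 with the arrays centred, with Mesp1 (0.42) above and Eomes (-0.72) and Pax6 (-0.40) below.

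Wnt ligands rose, and more of the receptors and nuclear factors of the pathway fell than rose. Of 19 Wnt ligands 12 were higher (63.2%) and none lower, a result known from earlier work on these samples. After quantile normalization, and likewise with the arrays centred, 9 were higher and none lower. The median mock level of these ligands was 5.12. Wnt3 read 4.95, 5.13, 4.87 and 5.52 in mock and 6.38, 6.43, 6.47 and 6.49 in UV arrays (1.33 ± 0.10 SE), and Wnt8b (1.42), Wnt9a (0.88) and Wnt3a (0.59) rose. Of 37 Wnt receptors, nuclear factors and feedback genes 19 were lower and 8 higher, with the antagonist Sfrp2 at 1.12 and Lef1, Tcf7l1 (-0.67) and the receptor Lgr4 (-0.75) below. Lef1, the nuclear partner of beta-catenin with the largest fall of all named genes, read 8.80, 8.58, 8.71 and 8.71 in mock and 6.78, 6.82, 6.95 and 7.03 in UV arrays (-1.80 ± 0.07 SE).

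In the Notch pathway the ligands Jag2 (1.48) and Dll1 (1.36), the receptor Notch3 (1.28) and the targets Nrarp and Hey2 (1.03) rose. Nrarp, a feedback inhibitor of Notch, read 5.90, 5.99, 6.09 and 6.08 in mock and 8.15, 8.12, 8.25 and 8.16 in UV arrays (2.15 ± 0.06 SE, limma adjusted p = 1.79e-13). The protease Adam10 (-0.81), the DNA-binding partner Rbpj (-0.63), Notch2 (-0.42) and the target Hes1 (-0.40) fell. The counts were 13 of 29 higher and 8 lower. Of the Nodal and TGF-beta genes 6 of 29 were higher, among them Lefty1 (0.75), Nodal itself (0.56) and Lefty2 (0.48), and 12 lower, among them Inhbb (-0.73), Tgfb1 (-0.52) and the receptor Acvr2a (-0.44).

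BMP signalling had the ligand Bmp7 (1.08) and the target Id2 (0.88) above mock and Bmp4 (-0.61) and the receptors Acvr1 (-0.57), Bmpr1a (-0.47) and Bmpr2 (-0.35) below, 7 of 22 higher and 6 lower in all. The FGF and ERK list leaned down, 18 of 28 lower and 4 higher. Etv1 (-1.77), an ERK-responsive transcription factor, Fgf17 (-1.06), Braf (-0.73), Fgf15 (-0.64) and Sos1 (-0.64) fell, and the receptor Fgfr4 rose (1.69). In the LIF pathway the cytokine gene Lif rose (1.25), and both chains of its receptor, Lifr (-0.79) and Il6st (-0.70), and the kinases Jak1 (-0.62) and Jak2 (-0.80) fell.

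More chromatin genes fell than rose in each family described here. Of 33 histone lysine methyltransferases and demethylases 27 were lower (81.8%) and 2 higher, with a median of -0.31. Kmt2c, an enhancer H3K4 methyltransferase, was at -1.34, the H3K27 demethylase Kdm6a at -1.05, Kdm4c at -1.08 and Nsd2 at -0.89, and the H3K79 methyltransferase Dot1l rose (0.42). Of 36 remodellers 25 were lower and 2 higher, led by Smarca1 (-1.20), Chd7 (-1.16) and Ino80 (-1.0). Polycomb had 19 of 31 lower and 3 higher, with the catalytic subunit Ezh2 at -0.62 and Jarid2 at -0.80, and Phf1 (0.80) higher. DNA methylation and TET genes had 10 of 16 lower and 1 higher, including Tet2 (-0.66) and Dnmt3a (-0.63). Histone acetylation genes had 16 of 30 lower and 7 higher with a median of -0.14, from the acetyltransferase Kat2b (-0.91) to the corepressor Sin3b (0.77). The lysine enzymes and remodellers that fell had median spans of 72.7 kb and 106 kb, against 62.4 kb and 75.6 kb for their lists. Among all genes with a mean log2 value of at least 6, 52.3% of those of 30 to 100 kb were lower. For 100 to 300 kb the share was 77.9%. Whether chromatin genes fell more than other genes of like span was not tested.

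The complexes that fold and hold chromosomes fell almost without exception. Of 23 cohesin, condensin and CTCF genes 19 were lower (82.6%) and none higher, with a median of -0.35. Stag1, a cohesin subunit, read 9.65, 9.49, 9.55 and 9.51 in mock and 8.36, 8.43, 8.36 and 8.43 in UV arrays, all below the mock values (-1.15 ± 0.05 SE, limma adjusted p = 2.47e-11). Its paralogue Stag2 was at -1.0, the loader Nipbl at -0.86, and the cohesin regulators Pds5b and Pds5a at -0.82 and -0.72. The members that fell had a median span of 53.9 kb.

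More cell cycle genes fell than rose, by a margin that shrank for replication and G1 genes after quantile normalization. Of 43 DNA replication genes 19 were lower (44.2%) and 4 higher, or 17 and 8 after quantile normalization. Among genes with a mean log2 value of at least 6 the share lower was 35.5%. Pola1, the catalytic subunit of the priming polymerase, read 9.44, 9.43, 9.33 and 9.23 in mock and 8.31, 8.21, 8.25 and 8.29 in UV arrays (-1.09 ± 0.06 SE), and its partner Prim2 was at -0.70. Gins2, of the replicative helicase, rose (0.27), and Orc6 (0.23) and Rrm2 (0.19) rose too but were not called with the arrays centred. Of 37 mitosis genes 18 were lower, led by Kif18a (-0.75), and 6 higher, including Aurkb (0.43) and Cdc20 (0.31). Of 27 G1 cyclins, CDKs and inhibitors 11 were lower (40.7%) and 5 higher, or 9 and 6 after quantile normalization. Cdkn2b, the CDK4 inhibitor p15, rose by 1.19 and Rbl2 by 0.69, while Cdk6 (-1.10), Ccnd2 (-0.88) and Cdkn1b, the inhibitor p27 (-0.62), fell.

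Most enzymes that charge tRNA fell. Of 18 tRNA synthetases 11 were lower and none higher, with a median of -0.33, led by Lars (-0.64), Yars (-0.62) and Sars (-0.60). Atf4, which drives these enzymes in the integrated stress response, read 8.90, 8.93, 8.94 and 8.98 in mock and 8.23, 8.04, 8.22 and 8.19 in UV arrays, all lower (-0.77 ± 0.06 SE, limma adjusted p = 3.49e-08). Of its targets, Chac1 (-0.96), Psat1 (-0.53) and Vldlr (-1.06) fell as well. The list of 34 stress response genes had 18 lower and 5 higher, with the largest rise in Sesn2, also a p53 arrest target. Whether the targets moved with Atf4 was not tested. Atf6, a sensor of unfolded proteins, was at -0.87.

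Translation initiation and elongation factors had 16 of 51 lower and 10 higher, or 12 and 11 after quantile normalization and 23 and 6 with the arrays centred. Cytosolic ribosomal proteins changed by about as much as the median of all genes, with 7 of 53 higher, none lower and a median of 0.04, which became -0.03 with the arrays centred. Between 3 and 12 of them were called higher when 1 array was left out. Respiratory chain genes had 27 of 80 higher and 9 lower, and mitochondrial ribosomal proteins 25 of 77 and 11. With the arrays centred these counts turned to 13 and 16 and to 13 and 22, so that no direction holds for either. Single members moved further: Cox6b2, a testis-type subunit of cytochrome oxidase, rose by 1.2 and Ndufa11 by 0.76, and Ndufs4, of 100.0 kb, was at -0.44.

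Hypoxia response genes fell, 17 of 21 lower and 2 higher, with a median of -0.29. Ndrg1 was at -0.97, the oxygen sensors Egln3 and Egln1 at -0.68 and -0.50 and the demethylase Kdm3a at -0.57, while Ddit4 (REDD1), which is a p53 target too, rose (0.69). In glycolysis 14 of 24 were lower and 3 higher, with hexokinase Hk2 at -0.87 and Pfkp at -0.65, and Pfkfb4 (0.86) and the muscle isoform Pfkm (0.56) higher. Of 28 heat shock and chaperone genes 14 were lower and 7 higher, or 8 each after quantile normalization. Hspa1a (0.92) and its co-chaperone Dnajb1 (0.86) rose. Hmox1, the haem oxygenase of the NRF2 response, rose by 0.78, and Me1 (-0.91) and Gclm (-0.38) fell.

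The largest falls were in long genes of many functions, 21 of the first 25 over 100 kb. Cask, a membrane-associated scaffold kinase of 330.0 kb, read 8.01, 7.92, 8.00 and 7.98 in mock and 6.21, 6.32, 6.28 and 6.33 in UV arrays (-1.69 ± 0.05 SE). Gphn (gephyrin, 467 kb) was at -1.62, the glycosyltransferase-like gene Gtdc1 (363 kb) at -1.74, and the tRNA-modifying enzyme Cdkal1 (664 kb) at -1.47. The cell surface receptor Tenm3 (1300.0 kb) was at -1.44, the formins Diaph2 (716 kb) and Diaph3 (486 kb) at -1.43 and -1.32, and adenosine kinase, Adk (396 kb), at -1.39. Of the 25 genes with the largest falls, the shortest were Slc6a15 (51.6 kb) and Esrp1 (54.9 kb), at -1.33 and -1.47.

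Whole families built from long genes shared the fall. Of 31 HECT and cullin ubiquitin ligases 24 were lower (77.4%) and 4 higher, with a median of -0.44, led by Nedd4l (-1.34), Herc4 (-0.84) and Btrc (-0.82); Fbxw7 rose (0.74). Vesicle tethering and Golgi genes had 21 of 31 lower and 5 higher, among them the exocyst subunits Exoc6b (-1.31) and Exoc4 (-1.07) and the lipid transfer protein Vps13b (-1.25), against the short exocyst genes Exoc7 (0.50) and Exoc8 (0.36). Cadherins, catenins and tight junctions had 18 of 28 lower, including the polarity gene Pard3 (-1.01) and the scaffolds Magi3 (-0.94) and Magi1 (-0.91), and 5 higher, including the short claudins Cldn6 (0.72) and Cldn4 (0.64). Integrins and focal adhesion genes had 19 of 32 lower, including Itga9 (-1.48) and Vcl (-0.65), and 5 higher, led by Itgb4 (1.33). In PI3K, AKT and mTOR signalling 17 of 29 were lower and 5 higher, with both Igf1r (-1.20) and Insr (-1.02), the receptors of IGF1 and insulin, below mock.

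**Figure D3:**
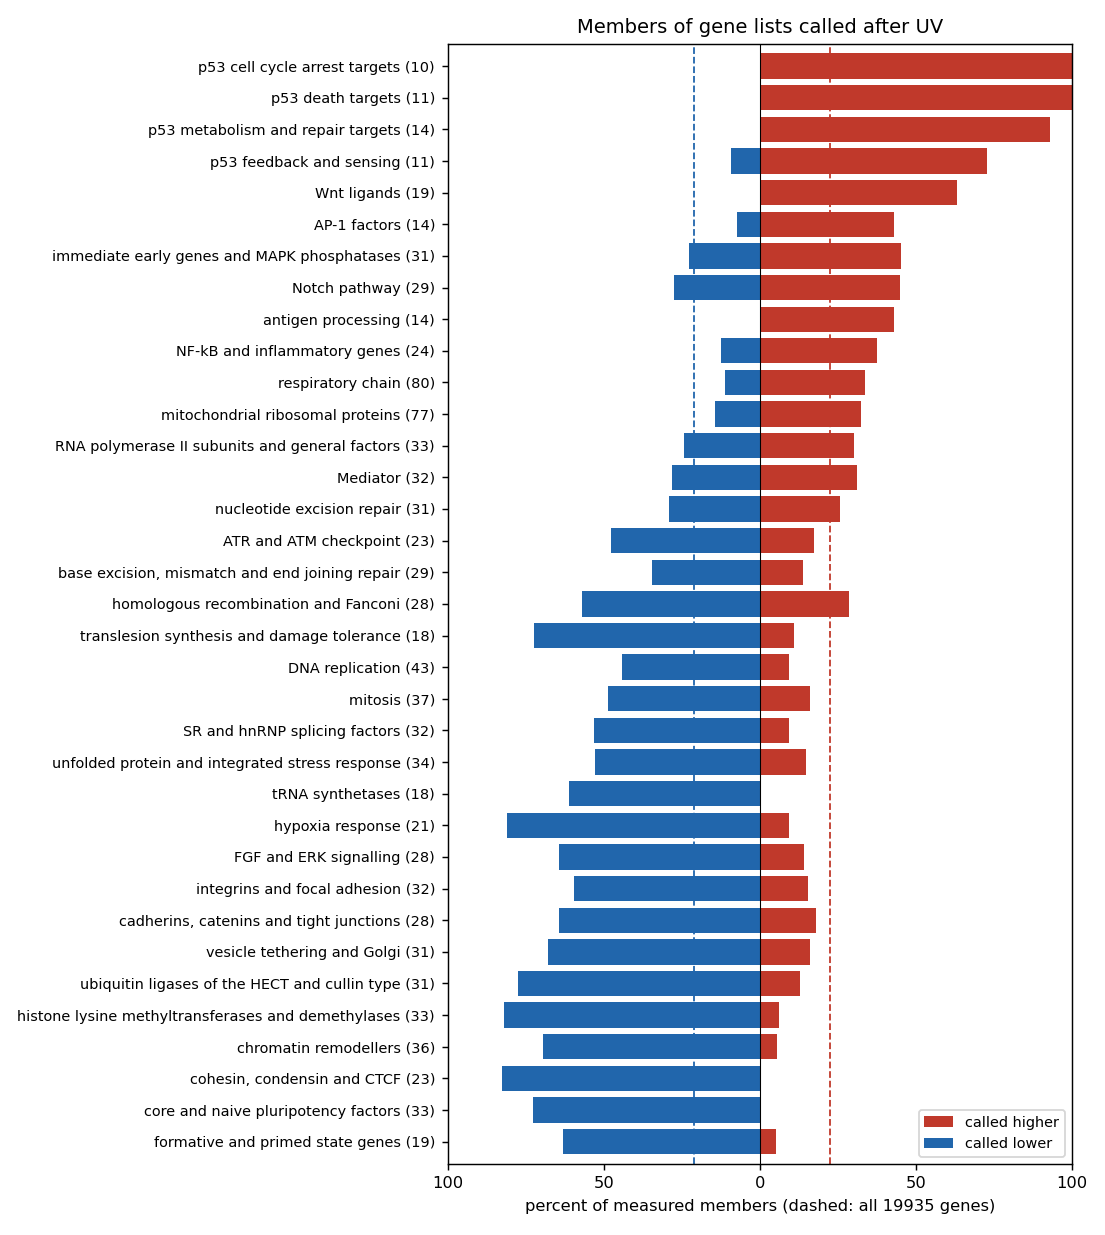
Percent of the measured members of 35 gene lists (number measured in brackets) called higher (red, to the right) and lower (blue, to the left) after UV by limma; dashed lines mark the same shares over all 19935 genes (22.6% and 21.2%). The 4 p53 lists and the Wnt ligands stand furthest to the right, and cohesin with condensin (82.6% lower) and histone lysine enzymes (81.8% lower) furthest to the left.

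The fall grew step by step with gene span among expressed genes and was small among dim ones. Among genes with a mean log2 value of at least 6 the median change was 0.12 for the 2473 genes under 10 kb, 0.04 for 10 to 30 kb, -0.17 for 30 to 100 kb, -0.48 for 100 to 300 kb and -0.80 for the 128 genes over 300 kb. The share called lower was 12.6%, 23.2%, 52.3%, 77.9% and 82.8% in the same order, and the share called higher 42.5%, 35.1%, 18.7%, 8.18% and 5.47%. Below a mean of 6 the median went from 0.05 to 0.01 and 3.32% to 19.6% of a class were called lower. Genes in 1 class are not replicates of a condition, and no test was made on the classes.

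After adriamycin the medians of the same 5 classes of expressed genes, which share the mock arrays with the UV values, were -0.06, -0.08, -0.08, -0.06 and -0.06. In the direct contrast of UV with adriamycin arrays, 86.7% of expressed genes over 300 kb were called lower after UV. Exceptions among long genes were few: 82 of the 1002 expressed genes of 100 to 300 kb and 7 of the 128 longer ones were higher than mock. The long genes that rose and are named here include Fbxw7 (164 kb, 0.74), Map3k13 (109 kb, 0.59), Map3k20 (157 kb, 0.55), Ptpn14 (148 kb, 0.94) and Arhgef33 (127 kb, 1.80).

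**Figure D4:**
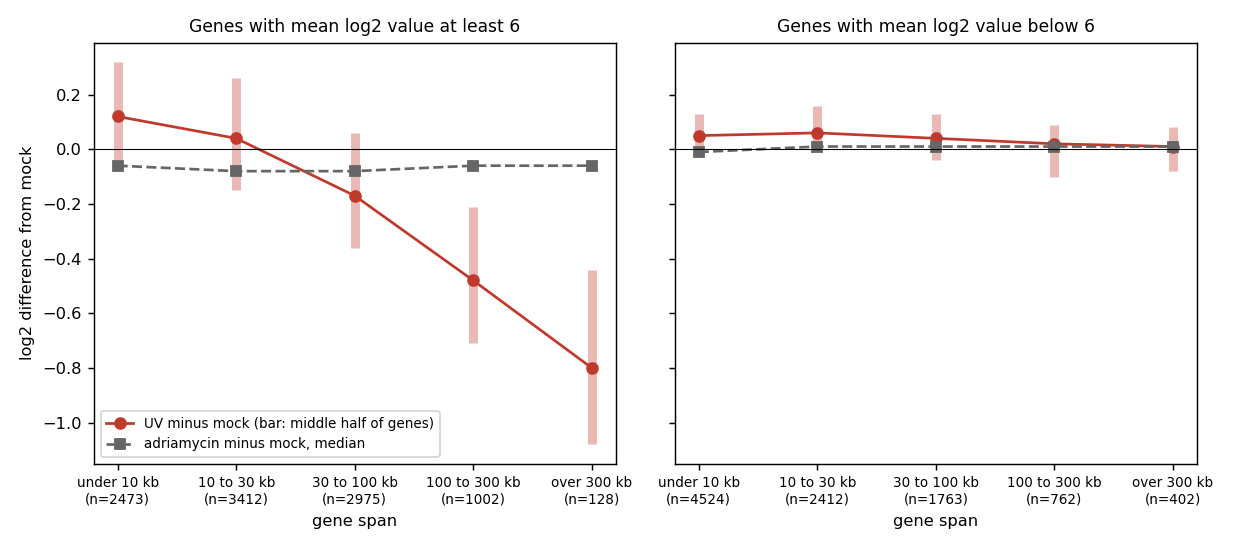
Median UV minus mock difference (log2, red circles; bars span the lower to the upper quartile of the genes) and median adriamycin minus mock difference (grey squares) for 5 classes of gene span, in genes with a mean log2 value of at least 6 (left) and below 6 (right), with the number of genes under each class. Among expressed genes the UV median goes from 0.12 under 10 kb to -0.80 over 300 kb, while the adriamycin median stays between -0.08 and -0.06; both use the same mock arrays.

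MicroRNA genes of 1 imprinted region fell. This set was chosen after its values were seen. The arrays carry probes for 296 microRNA genes, which read hairpins and longer primary transcripts in total RNA as well as any mature product they can bind, so their values are not mature microRNA levels. Of these genes 30 were higher (10.1%) and 20 lower (6.76%). Of the 20 that fell, 16 lie among the 40 measured between Dlk1 and Dio3 on chromosome 12, a region expressed from the maternal chromosome as long non-coding transcripts, and elsewhere 4 of 256 fell (1.56%) and 29 rose.

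Sequences of the mature microRNAs were taken from RefSeq (GRCm38.p6), which had them for 270 of the 296 genes. Those shown, 1 arm each, are the genes with the 4 largest falls and the 2 largest rises; capitals mark the seed, bases 2 to 8, which pairs with target mRNAs.
miR-382-5p (chr12:109733781-109733802, plus strand): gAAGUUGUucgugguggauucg
miR-539-5p (chr12:109728136-109728157, plus strand): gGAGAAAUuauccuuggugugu
miR-377-3p (chr12:109740553-109740574, plus strand): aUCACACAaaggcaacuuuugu
miR-487b-5p (chr12:109727347-109727367, plus strand): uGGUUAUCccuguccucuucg
miR-200a-3p (chr4:156054911-156054932, minus strand): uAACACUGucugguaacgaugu
miR-200b-3p (chr4:156055685-156055706, minus strand): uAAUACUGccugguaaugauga
No seed is shared among those shown.

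Mir382 read 5.80, 5.50, 5.88 and 5.37 on the mock arrays and 4.22, 4.51, 4.56 and 4.01 on the UV arrays, with no overlap (-1.31 ± 0.16 SE, limma adjusted p = 3.29e-06). Mir539 read 5.81, 5.20, 5.20 and 4.97 and 3.96, 4.19, 4.12 and 3.85 (-1.26 ± 0.13), and Mir377 read 4.89, 4.43, 4.52 and 4.52 and 3.38, 3.48, 3.62 and 3.44 (-1.11 ± 0.09). For the last pair, too, every UV array lay below every mock array.

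The calls were not spread evenly along the region. Of the 8 microRNA genes before Rian in chromosomal order 1 was lower, and of the 32 after it 15 were, with the largest falls grouped from Mir300 (-0.86) to Mir377. Rian, the non-coding transcript of the region that hosts box C/D small nucleolar RNAs, was at -1.01 ± 0.12, while Meg3, next to the promoter, was at -0.28 ± 0.08 with overlapping arrays. Of the protein-coding genes of the region, Dlk1 was at 0.21 and Dio3 at 0.33, both higher, though the call of Dlk1 was lost without mock array 1, 2 or 3 or UV array 3 or 4 (0.17 to 0.20), and Rtl1 was not called (-0.11 ± 0.09). After adriamycin, against the same mock arrays, Mir382 changed by -1.41, Mir539 by -1.24, Mir377 by -1.07 and Rian by -1.56.

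**Figure D5:**
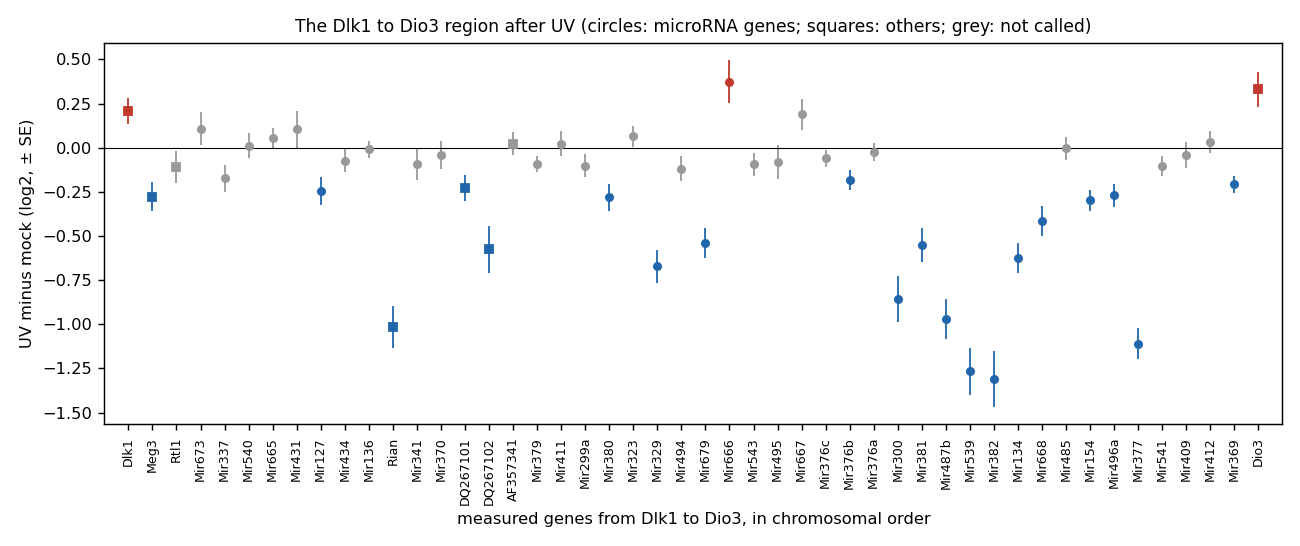
UV minus mock difference (log2, ± SE of limma) for the 48 measured genes from Dlk1 to Dio3 in chromosomal order, microRNA genes as circles and others as squares; blue marks genes called lower, red called higher and grey not called. The lowest values, Mir382 at -1.31 and Mir539 at -1.26, lie towards the Dio3 end with Mir377 (-1.11), and Rian (-1.01) stands alone among its neighbours.

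Among microRNA genes that rose, the epithelial Mir200a and Mir200b, which lie next to each other on chromosome 4, moved most. Mir200a read 4.85, 5.06, 5.12 and 5.11 in mock and 5.76, 6.08, 5.98 and 5.49 in UV arrays (0.79 ± 0.11 SE, limma adjusted p = 1.51e-05), and Mir200b was at 0.72 ± 0.12. Mir34a, a p53 target, was at 0.36 ± 0.11 (adjusted p = 0.0126) with overlapping arrays, and missed the threshold without UV array 3 (0.27). Mir93 (0.41), Mir106b (0.37) and Mir25 (0.30), 3 hairpins of 1 intron of Mcm7, were all higher, but the call of Mir106b was lost without mock array 1 or 4 or UV array 1, 2 or 3 (0.28 to 0.38).

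UV was set against adriamycin directly, in a contrast that leaves out the mock arrays. Of 19935 genes 4420 were higher after UV than after adriamycin (22.2%) and 3950 lower (19.8%), together 42.0%, or 6413 and 3411 with the arrays centred. UV arrays were higher for most pluripotency, immediate early, mitosis and histone genes: of 33 pluripotency factors 23 were above adriamycin and none below, of 31 immediate early genes 23 and none, of 37 mitosis genes 28 and 1, and of 30 replication-dependent histone genes 24 and none. Against mock, 24 of the 33 pluripotency factors, 18 of the 37 mitosis genes and 13 of the 30 histone genes were lower after UV. Those higher than mock were 0, 6 and 0. Their median changes from mock were -0.32, -0.14 and -0.17 after UV and -0.67, -0.42 and -0.50 after adriamycin. For immediate early genes the medians were 0.15 and -0.15. In the direct contrast DNA replication genes were split, 13 of 43 above and 10 below. UV arrays held less of the long-gene families: 23 of 31 HECT and cullin ligases and 20 of 31 vesicle tethering genes were below adriamycin, and 1 and 2 above. Of the p53 lists, 10 of 11 feedback genes were below adriamycin and none above, 4 of 10 arrest targets below and 3 above, 6 of 11 death targets below and 2 above, and 8 of 14 metabolism and repair targets below and 1 above. Centring, which moved the median of all genes in this contrast from 0.044 to 0.092, was not applied to these list counts.

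Of the named differences, Prdm14 was 1.77 ± 0.05 higher after UV (limma adjusted p = 7.6e-13), with changes from mock of -1.0 after UV and -2.77 after adriamycin, and Nr0b1 was 2.11 ± 0.06 higher (-0.21 and -2.32). Of the 10 largest differences each way, Trh, the gene of thyrotropin-releasing hormone, was the only one above mock after UV and below it after adriamycin (0.26 and -1.39). The genes furthest below adriamycin were Ano3 (-2.71 ± 0.10), a 295 kb anoctamin gene, Plxdc2 (-2.56, 405 kb), the receptor Egfr (-2.16, 162 kb) and Arhgap20 (-1.87, 87.7 kb). Plxdc2 and Ust were below mock after UV (-0.45 and -0.57) and above it after adriamycin (2.11 and 1.1).

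Members of the p53 and stress lists differed from adriamycin in both directions. Apaf1, of 93.4 kb, was -1.25 ± 0.05 and Polk, of 61.9 kb, -0.89 ± 0.06 on the UV minus adriamycin scale. Mdm2 was -0.59 ± 0.05 and Plk2 -0.28 ± 0.06. A relation of these differences to span within the p53 lists was not tested. Atf3 was 0.98 ± 0.08 higher after UV (limma adjusted p = 4.61e-08), B2m 0.79 ± 0.09 (adjusted p = 3.58e-06), Hexim1 0.63 ± 0.05 (adjusted p = 1.01e-07) and Jun 0.41 ± 0.07 (adjusted p = 0.000205). Btg2, Fosl1 and Ell3 gave -0.04 ± 0.07, -0.02 ± 0.14 and 0.06 ± 0.07, with adjusted p of 0.725, 0.912 and 0.542 in limma.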

How the data were processed

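RNA of R1E cells was measured on Affymetrix whole-transcript arrays. The authors deposited 1 log2 intensity for each probe set on each array; the submitters' processing notes name Affymetrix Expression Console 1.1, RMA and Partek 6.4, with no order or role. The 12 R1E arrays were fitted together with limma 3.58.1 in R 4.3.3 (lmFit and eBayes), for UV minus mock and UV minus adriamycin, with no block and Benjamini-Hochberg adjustment over 19935 genes. Of 28815 probe sets with values 21780 named 1 gene, 1605 several and 5430 none. For each gene 1 probe set was used, that with the highest mean over all 18 arrays of the series, p53-/- arrays included. Spans came from RefSeq for 99.6% of genes. The number of arrays limits the precision. The script was tested on simulated data.

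Named genes were, from each of 80 lists, up to 6 members with the largest change each way, the 25 largest rises and falls of all genes, the 10 largest UV minus adriamycin differences each way, and a panel. The members and lists were chosen with earlier results of these data known. Alternatives were quantile normalization, centring on array medians, a filter on dim genes, other rules for probes, another eBayes prior, 8 arrays, a replicate block, a test against 1.2-fold and leaving out each array.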

Additional observations from a re-analysis of the deposited data

Results flagged for a closer look

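Among groups of 4 arrays, 37 of 690 held 1 array far from the other 3, about as many as the 1 in 20 that chance gives. The measure is the gap to the nearest array divided by the range of the group, and groups past Dixon's critical value are listed with it. Mock array 1 lay above the rest for Ercc2 (0.842), Gpx3 (0.853) and Rian (0.835). Mock array 2 lay above the rest for Rif1 (0.883). Mock array 4 lay above the rest for Bbc3 (0.829) and Phlda3 (0.928). Mock array 1 lay below the rest for Isg20 (0.864) and Nipal4 (0.868). Mock array 2 lay below the rest for Dcxr (0.844), Egfr (0.929), Epha2 (0.839) and Mesp1 (0.943). Mock array 3 lay below the rest for Gclm (0.895). Mock array 4 lay below the rest for Cdkal1 (0.877), Ephx1 (0.834), Pfkm (0.944) and Sos1 (0.927). UV array 1 lay above the rest for Ankrd1 (0.834), Gphn (0.89), Med10 (0.982) and Pax6 (0.865). UV array 2 lay above the rest for Ano7 (0.889), Egr1 (0.906), Hmox1 (0.946), Ndufa11 (0.868) and Usp2 (0.887). UV array 3 lay above the rest for Hexim1 (0.851) and Uvrag (0.846). UV array 4 lay above the rest for Ino80 (0.856) and Nodal (0.865). UV array 1 lay below the rest for Aldh4a1 (0.877) and Bad (0.893). UV array 2 lay below the rest for Chd7 (0.905), Chek1 (0.87) and Insr (0.907). UV array 3 lay below the rest for Gclm (0.851). UV array 4 lay below the rest for Anxa8 (0.918).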

How the results depend on the processing

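Of the 344 genes named 336 were called, and none of them turned its direction under those of the 17 alternatives that kept it; the filter on dim genes left out 35. Apart from the 1.2-fold test, 10 of them lost the call under at least 1 alternative: Ano3, Calr, Chek1, Dlk1, Mir106b, Mir34a, Myc, Nr0b1, Orc6 and Rrm2. Genes that gained a call were Pou5f1 with the arrays centred (-0.15), Mcm7 after quantile normalization (0.18) and Ercc6 without UV array 3 (0.17). The test against 1.2-fold called 3120 genes for UV minus mock, 1506 higher and 1614 lower, and 2512 for UV minus adriamycin, 941 higher and 1571 lower; it asks for a larger change, and 62 named genes lost the call. Leaving out each array gave 7868 to 8890 calls for UV minus mock, with 3964 to 4686 higher and 3861 to 4204 lower, and 7638 to 8206 for UV minus adriamycin, with 3943 to 4289 higher and 3693 to 3917 lower. Centring moved the share of UV minus mock calls that were higher from 51.6% to 35.3% and that of UV minus adriamycin from 52.8% to 65.3%; quantile normalization gave 46.7% and 52.9%. Arrays of the same replicate number did not deviate together (r of 0.147, -0.142, -0.022 and 0.087). With the replicate block 8677 genes were called for UV minus mock and 8242 for UV minus adriamycin, and no named gene changed its call; not every array correlated best with its own number. Of list counts, that of cytosolic ribosomal proteins called higher was 3 without mock array 2 or 3 or UV array 2, 4 without UV array 3 and 12 without mock array 4 or UV array 4. That of respiratory chain genes called lower was 5 without mock array 1 or UV array 2 and 4 without UV array 4, and that of olfactory receptors called higher 27 without mock array 1 and 36 without mock array 2. The counts of other lists described in the text that moved by more than 1.5 times without 1 array hold at most 5 members. No background level of the arrays was measured, so no limit of detection is given.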

Other observations

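Autophagy genes leaned down, 19 of 35 lower and 6 higher, with a median of -0.19. Uvrag, named for its link to UV resistance and a partner of Beclin, fell (-0.83, 254 kb), as did Tfeb, the lysosomal transcription factor (-0.75), and Ambra1 (-0.59), while the receptor Sqstm1 (0.36), the kinase Ulk1 (0.35) and Dram1 (0.33), a p53 target, rose. Of 49 deubiquitinases 28 were lower, led by Usp3 (-0.86) and Usp46 (-0.83), and 11 higher, led by Usp27x (0.85) and Usp2 (0.78). Motor proteins had 21 of 44 lower and 7 higher, from Kif16b (-0.97) to Kif18b (1.06), and nuclear pore genes 15 of 25 lower and 4 higher.

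Epithelial genes that mock cells held at low levels rose singly. Of 52 keratins 14 were higher and 3 lower, or 9 and 5 with the arrays centred. The basal keratins Krt5 (1.60) and Krt15 (1.32) and Krt13 (1.32) rose most; Krt5 read 5.76, 5.90, 5.95 and 5.35 in mock and 7.17, 7.46, 7.40 and 7.34 in UV arrays. Olfactory receptors, with a median mock level of 3.19, had 56 of 1027 higher and 5 lower, and 9 and 51 with the arrays centred. In the Hippo list Ankrd1, a target of YAP, fell (-1.16) and Ccn1, another, rose (1.13).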
